A study of Mus musculus with 6 samples.

Results

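The peaks described here are the accessible intervals around 4 mouse genes of early lymphocyte development, Rag1, Rag2, Ptcra and Dntt. A peak was taken when it shared a base with the body of 1 of these genes or with the 100 kb to either side of it, in the GENCODE annotation of mm9. Rag1 and Rag2 are neighbours and were treated as 1 interval, so that no peak was counted more than once. This gave 40 of the 32527 peaks of the list, 12 in the Rag1-Rag2 interval, 18 in the Ptcra interval and 10 in the Dntt interval. The rule used only gene names and distance, and no measured value.

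The list comes from ATAC-Seq of the mouse line Beko, progenitor T cells with constitutive Notch activity. In ATAC-Seq a transposase cuts and tags open chromatin, and intervals with many reads are called as peaks. There were 6 libraries, 3 of cells kept for 24 h in DAPT, a γ-secretase inhibitor (GSI) that stops release of the Notch intracellular domain, and 3 of cells given DMSO for the same time. The dose of DAPT is 10 in both sources, in mg/ml per the labels and in µg/ml per the methods of the study. All libraries are from 1 cell line, and whether the 3 libraries of a treatment came from separate cultures is not given in the sources used here. The authors merged the peaks of all 6 libraries into 1 list that gives positions only. Every value below therefore has no replicate error, none was tested, and GSI against DMSO was not analysed here. Read depth was not adjusted for, although it can affect which peaks were called and how wide they are. A gene region without a peak has no interval that the authors kept, which does not show that its chromatin was closed.

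Rag1 and Rag2 encode the recombinase that cuts DNA at recombination signal sequences and so starts the assembly of antigen receptor genes. Dntt encodes terminal deoxynucleotidyl transferase, which adds nucleotides without a template at the cut ends before these are joined. Ptcra encodes the pre-TCRα chain, the partner of a freshly rearranged TCRβ chain in the pre-TCR, and is known as a target of Notch and of E proteins through an enhancer upstream of the gene. RBPJ, the DNA-binding partner of the Notch intracellular domain, and Ikaros both recognise sequences that hold TGGGAA, while E proteins bind E-boxes such as CAGCTG and CAGGTG. Regulatory elements of Rag1 and Rag2 that act in developing lymphocytes lie on the far side of Rag2.

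As a check of the cell type, 8 of 8 T-lineage progenitor genes (Cd3e, Cd3g, Bcl11b, Tcf7, Gata3, Lck, Notch1 and Il7r) had a peak within 1 kb of a start of their own. The B-lineage genes Cd79a, Pax5, Ebf1 and Ms4a1 had no such peak, and none of 5 myeloid genes (Csf1r, Cebpa, Mpo, Lyz2 and Itgam) had one. Among all 22380 protein-coding genes 46.9% had such a peak. The peak of Il7r was close to the limit of 1 kb, 991 bp from its start. The markers were chosen with earlier results of these data known. Genes on the lists used further below did not all go the same way. Cd3d had no peak within 1 kb of its start, and Vpreb1, a gene of the pre-B-cell receptor, had one.

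Parts of 7 of the 40 peaks are shown first, because the positions and words described below can be read in them. Each part is at most 280 bases long, lies outside annotated exons and is written 5′ to 3′ on the strand of the named gene, from the mm9 genome. Capitals mark the word TGGGAA, which reads TTCCCA where it sits on the other strand, and the E-box words CAGCTG and also CAGGTG, the latter of which then reads CACCTG. The first 3 are from the peaks over the starts of Ptcra (chr17:46900683-46900962, minus strand), Rag1 (chr2:101489690-101489969, minus strand) and Rag2 (chr2:101464525-101464804, plus strand). They show how differently the words are spread over 3 accessible starts.
Ptcra start peak: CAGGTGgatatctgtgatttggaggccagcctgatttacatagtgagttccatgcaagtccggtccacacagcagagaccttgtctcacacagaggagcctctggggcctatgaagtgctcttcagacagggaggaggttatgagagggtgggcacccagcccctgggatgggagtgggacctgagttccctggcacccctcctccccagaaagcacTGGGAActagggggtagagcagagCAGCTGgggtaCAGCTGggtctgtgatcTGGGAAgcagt
Rag1 start peak: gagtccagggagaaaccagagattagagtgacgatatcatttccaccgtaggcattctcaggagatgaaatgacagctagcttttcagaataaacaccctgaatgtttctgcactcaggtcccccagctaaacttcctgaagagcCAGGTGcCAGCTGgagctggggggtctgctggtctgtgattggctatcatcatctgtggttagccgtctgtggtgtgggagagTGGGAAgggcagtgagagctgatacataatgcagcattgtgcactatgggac
Rag2 start peak: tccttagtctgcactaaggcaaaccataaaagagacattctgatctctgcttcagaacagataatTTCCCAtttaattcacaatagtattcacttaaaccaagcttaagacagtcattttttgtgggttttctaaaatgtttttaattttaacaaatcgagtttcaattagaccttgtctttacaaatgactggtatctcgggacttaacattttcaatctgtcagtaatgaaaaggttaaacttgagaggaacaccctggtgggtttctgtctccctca

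The next 4 are from peaks away from starts. They are the nearest peak upstream of Ptcra (chr17:46904977-46905256, minus strand), a peak 73.2 kb upstream of Rag2 (chr2:101391506-101391785, plus strand), the peak nearest to the start of Dntt (chr19:41105524-41105803, plus strand) and the widest peak of the Dntt interval (chr19:41096712-41096991, plus strand). All of these parts but that of the Dntt intron peak hold TGGGAA and E-box words together. The parts from the starts of Ptcra and Rag1 also hold both, and that of Rag2 does not. The far upstream part of Rag2 was picked for its E-box words and the Dntt upstream part for its TGGGAA. This pairing therefore follows in part from the choice, and no share of the list is given for it. Parts of the Rpl7l1 start peak and of the peak 61.1 kb upstream of Rag2 are not shown. They hold 2 TGGGAA each, with 0 CAGCTG and 0 CAGGTG. The Dntt intron peak is shown as the nearest to the start of that gene, and none of the marked words lies in the printed part.
Ptcra upstream peak: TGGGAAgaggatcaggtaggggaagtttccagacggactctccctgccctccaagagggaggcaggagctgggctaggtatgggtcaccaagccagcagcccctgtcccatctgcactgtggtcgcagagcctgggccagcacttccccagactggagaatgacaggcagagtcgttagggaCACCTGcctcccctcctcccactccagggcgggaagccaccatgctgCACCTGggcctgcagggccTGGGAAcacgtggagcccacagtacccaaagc
Rag2 far upstream peak: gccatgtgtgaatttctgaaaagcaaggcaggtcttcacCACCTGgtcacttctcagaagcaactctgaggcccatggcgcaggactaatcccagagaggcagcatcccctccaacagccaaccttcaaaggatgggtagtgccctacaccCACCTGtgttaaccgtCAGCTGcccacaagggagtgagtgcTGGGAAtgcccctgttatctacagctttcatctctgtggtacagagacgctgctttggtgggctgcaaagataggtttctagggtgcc
Dntt intron peak: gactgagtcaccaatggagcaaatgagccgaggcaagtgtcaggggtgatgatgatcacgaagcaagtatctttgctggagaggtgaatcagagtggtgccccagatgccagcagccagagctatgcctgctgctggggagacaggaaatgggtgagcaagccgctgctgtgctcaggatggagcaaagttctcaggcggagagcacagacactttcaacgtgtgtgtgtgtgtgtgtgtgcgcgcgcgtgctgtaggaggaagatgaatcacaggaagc
Dntt upstream peak: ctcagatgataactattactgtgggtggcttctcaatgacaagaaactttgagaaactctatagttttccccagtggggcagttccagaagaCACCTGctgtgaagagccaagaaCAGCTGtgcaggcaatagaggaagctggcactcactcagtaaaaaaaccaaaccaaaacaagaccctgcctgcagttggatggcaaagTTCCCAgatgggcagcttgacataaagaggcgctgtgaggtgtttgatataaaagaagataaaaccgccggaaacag

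Peaks covered the starts of 3 of the 4 genes. Only Dntt had no peak within 1 kb of a start of its own, beside the 46.9% of protein-coding genes that had one. The Ptcra start peak (chr17:46900280-46901089) was 810 bp wide and reached from 547 bp upstream to 262 bp downstream of the start. Over the start of Rag2, the peak (chr2:101464525-101465349) was 825 bp wide and reached from 350 bp upstream to 474 bp downstream. The peak over the start of Rag1 (chr2:101489383-101490048) was 666 bp wide, with 390 bp upstream and 275 bp downstream of the start. All 3 thus lie across the start and the first exon, and the later exons of Rag1, Rag2 and Ptcra had no peak. The Rag1 start peak also covers the start of B230118H07Rik, a gene on the same strand that spans Rag1 and whose introns hold Rag2. Accessibility alone cannot say which of these genes the peak belongs to. The start of Ptcra in RefSeq lies 119 bp upstream of the GENCODE start and that of Rag1 31 bp upstream, in both cases inside the same peak. This RefSeq start of Rag1 is the same base as the GENCODE start of B230118H07Rik.

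**Figure D1:**
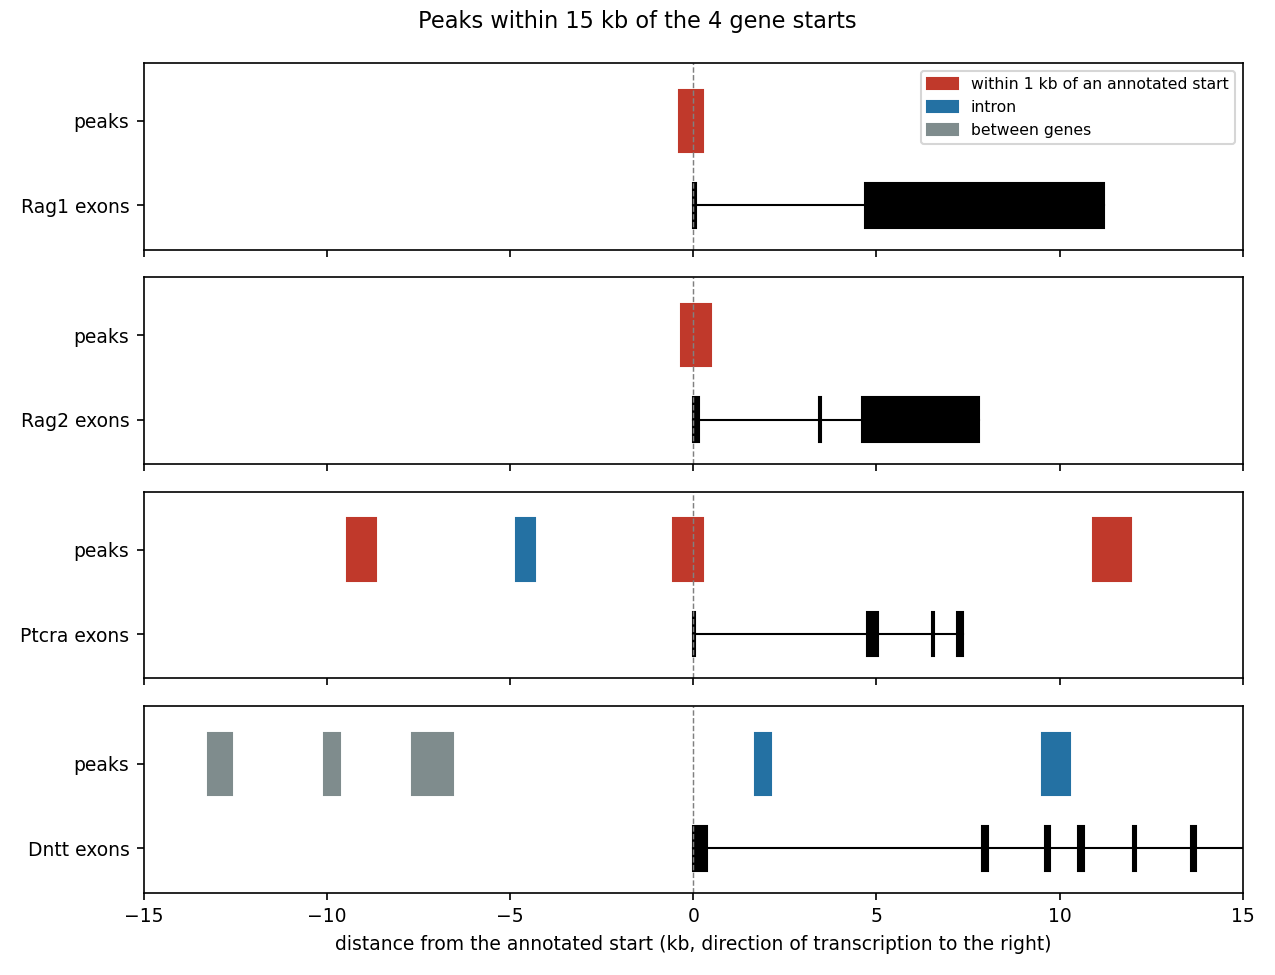
Peaks (upper boxes, to scale, coloured by annotation) and exons of 1 transcript (lower boxes) within 15 kb of the starts of Rag1, Rag2, Ptcra and Dntt, with distance from the start in kb on the x axis. Peaks cross the starts of Rag1, Rag2 and Ptcra, while the nearest peak of Dntt begins 1671 bp inside the gene.

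Dntt showed another arrangement. The nearest peak (chr19:41105436-41105891) was 456 bp wide and began 1671 bp downstream of the start, in intron 1. A second peak of the gene, 782 bp wide and centred 9.9 kb downstream of the start, covered the whole of exon 3, with its centre in intron 3. The peak furthest inside Dntt was 620 bp wide, centred 24.3 kb downstream of the start, and lay in intron 9. Upstream, a run of 3 peaks lay between genes, centred 12.9, 9.87 and 7.12 kb before the start. Their widths were 671, 453 and 1139 bp, and only 2494 and 1951 bp separated them. No peak lay in the 8221 bp between this run and the intron 1 peak, the stretch that holds the start. Of the 11874 protein-coding genes without a peak within 1 kb of a start, 2.33% (277 genes) had 3 or more peaks in the gene body, as Dntt did. Among those of 0.5 to 2 times the length of Dntt the share was 2.93% (82 of 2799). This pattern of Dntt was picked out after its values were seen, and the shares describe it without a test. With a distance of 5 kb in place of 1 kb all 4 genes had a peak at their start.

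In the Rag1-Rag2 interval (chr2:101364875-101589658) most peaks lay on the far side of Rag2. There were 8 peaks upstream of the Rag2 start, centred 98.8, 73.2, 61.1, 43.1, 27.3, 23.9, 23.2 and 16.1 kb before it. The outermost of these lay between genes and was 391 bp wide, and the next, also between genes, was 882 bp wide. The other 6 lay in introns of B230118H07Rik, and their widths, in the same order from 61.1 kb inward, were 1077, 803, 348, 381, 419 and 534 bp. The 3 widest of this run thus lay 43.1 kb or further from Rag2, and those at 23.9 and 23.2 kb were only 256 bp apart. Between the start peaks of Rag2 and Rag1 the list holds no peak over 24033 bp, a stretch with all coding sequence of both genes. On the other side of Rag1 a peak of 460 bp lay between genes, centred 16 kb upstream of the Rag1 start. The last peak, 890 bp wide, covered the start of Traf6, which encodes a ubiquitin ligase of innate receptor signaling. Whether any of these peaks is a known Rag element was not tested.

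**Figure D2:**
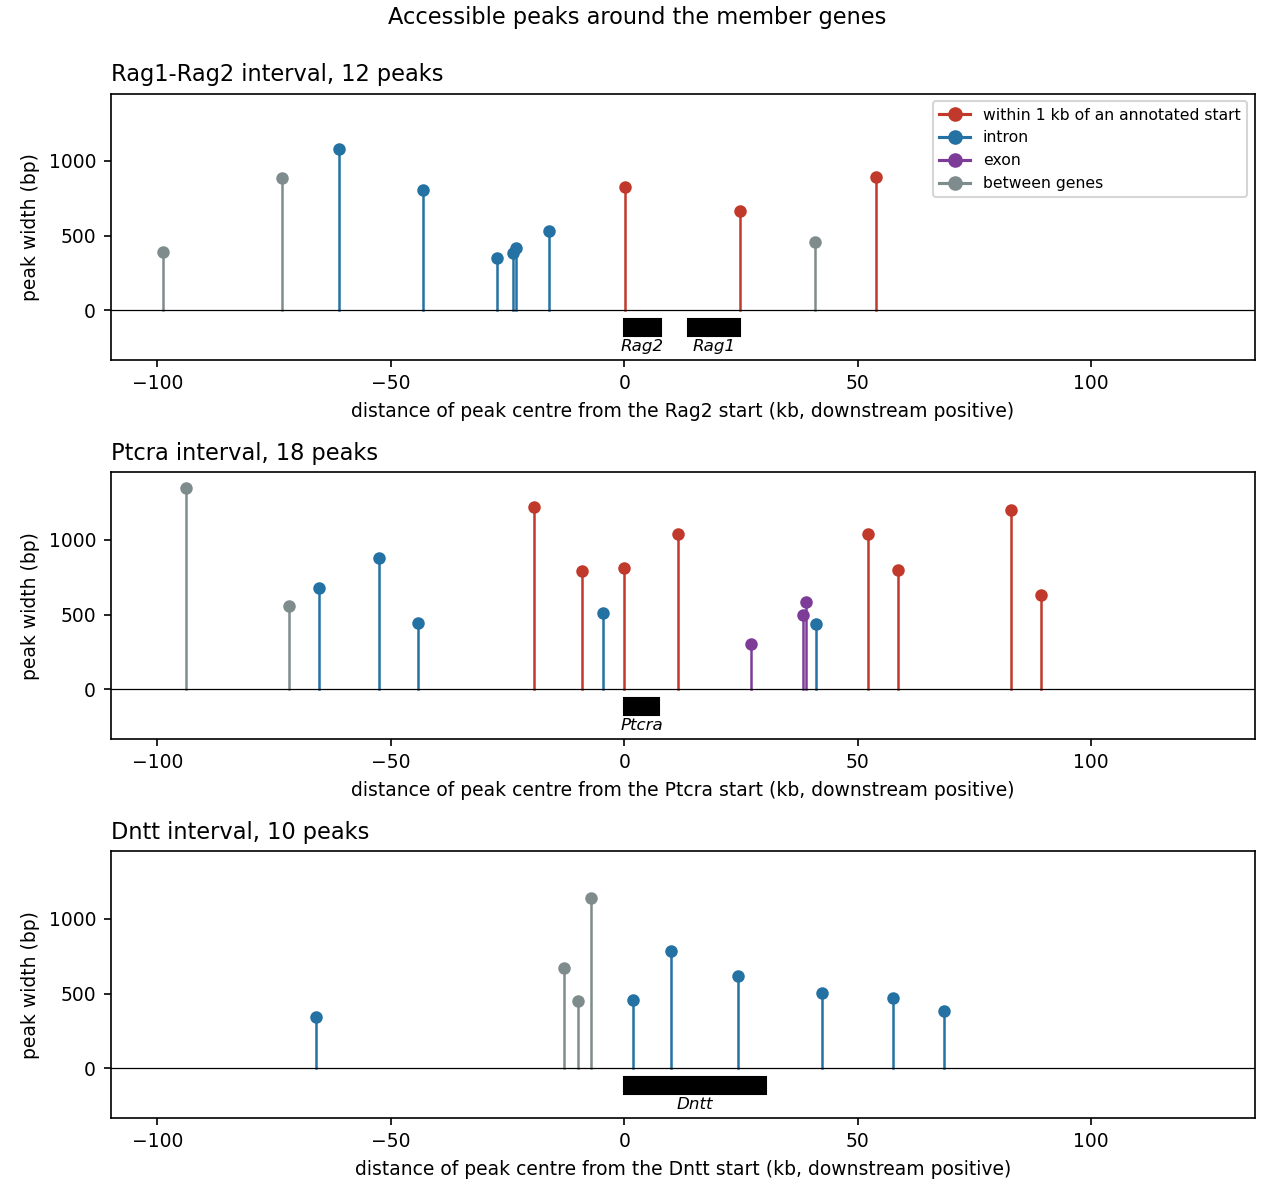
All 40 peaks of the 3 intervals, with the distance of the peak centre from the start of Rag2, Ptcra or Dntt in kb on the x axis and the peak width in bp as the height of each line; black bars are the gene bodies. The Ptcra interval has 8 start peaks, the Rag1-Rag2 interval 3 and the Dntt interval 0.

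The Ptcra interval (chr17:46793176-47000542) was the one with most peaks. A peak of 514 bp (chr17:46904859-46905372), centred 4.57 kb upstream of the start, was the nearest to Ptcra on that side and lay in an intron of the long noncoding RNA gene Gm16736. No further peak lay inside Ptcra beyond the start peak. Of the 18 peaks, 8 were at a start, 5 in introns, 3 in exons and 2 between genes. Besides that of Ptcra the start peaks belonged to Rrp36, to Klhdc3 and Mea1 together, and to Ppp2r5d, Pex6, Cnpy3, 2310039H08Rik and Rpl7l1. These include genes for ribosome biogenesis (Rrp36), a regulatory subunit of protein phosphatase 2A (Ppp2r5d), peroxisome assembly (Pex6) and a chaperone of Toll-like receptors (Cnpy3). The 3 exon peaks were 583 and 495 bp wide in Pex6, with 172 bp between them, and 306 bp wide in Cnpy3. On the upstream side, introns of BC032203 held peaks of 441, 876 and 681 bp, 44.2, 52.6 and 65.5 kb from the Ptcra start. The widest of all 40 peaks, 1345 bp, lay between genes 93.8 kb upstream of Ptcra, and its nearest annotated start, that of BC032203, was 25.3 kb away.

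Counted in the same way around each of the 22380 protein-coding genes, the median was 5 peaks, with quartiles of 1 and 10. The 18 peaks of the Ptcra interval were more than 95.9% of these genes had, the 12 of the Rag1-Rag2 interval more than 80.9% and the 10 of the Dntt interval more than 72.1%. Density followed the same order, with 8.68 peaks per 100 kb for Ptcra, 5.34 for Rag1-Rag2 and 4.34 for Dntt, beside a median of 2.35 over the protein-coding genes. Taken alone, Rag1 had 11 peaks and Rag2 had 12. Part of these counts belongs to neighbouring genes, since 7 peaks of the Ptcra interval and 1 of the Rag1-Rag2 interval lay at starts of other genes only. Without these, 11, 11 and 10 peaks were left around Ptcra, Rag1-Rag2 and Dntt. Close to the genes the order also differed, with 4 peaks within 10 kb of Ptcra, 5 within 10 kb of Dntt and 1 each within 10 kb of Rag1 and Rag2.

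**Figure D3:**
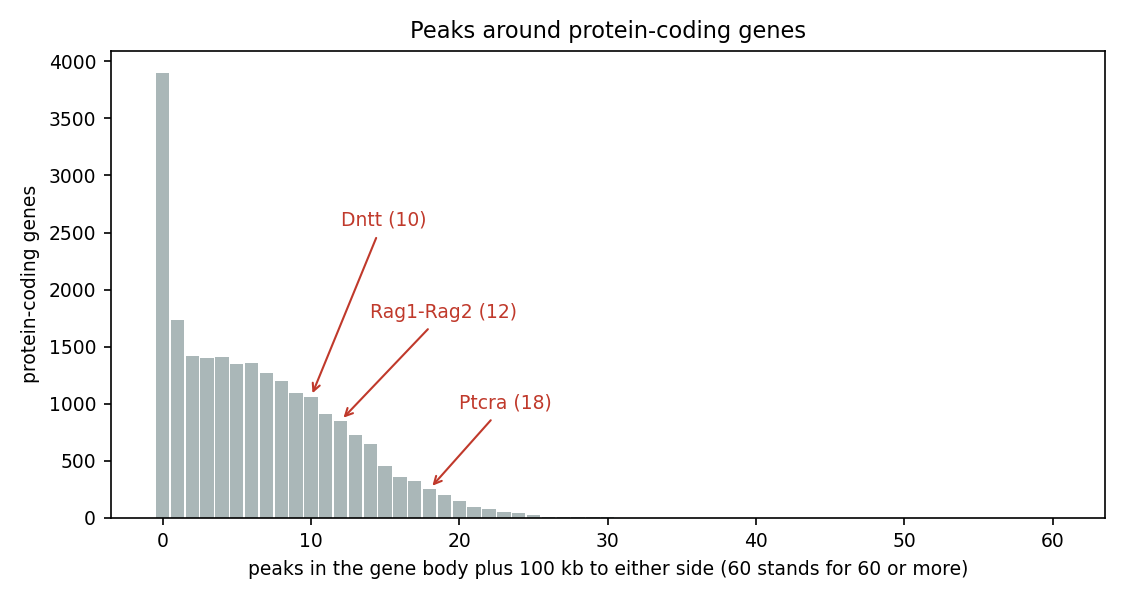
Number of protein-coding genes (y axis) by the number of peaks in the gene body plus 100 kb to either side (x axis). Arrows mark the counts of the Dntt (10), Rag1-Rag2 (12) and Ptcra (18) intervals, all to the right of the median of 5.

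The last peaks inside the limit of 100 kb were 98.6 kb from Rag2 (391 bp wide) and 28.7 kb beyond Rag1 (890 bp wide), and the first outside were 152 and 236 kb away (414 and 557 bp wide). Around Ptcra they were 81.6 and 93.1 kb away inside (630 and 1345 bp) and 105 and 107 kb outside (556 and 873 bp). Those of Dntt were 65.9 and 38 kb away inside (343 and 387 bp) and 134 and 204 kb outside (1283 and 1221 bp). A long empty stretch of 52.7 kb upstream of Dntt holds the start of Blnk, which encodes an adaptor of B-cell receptor signaling. Past Dntt, the remaining 3 peaks lay in introns of Opalin and Tll2, neither of which had a peak at its start.

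Over all 40 peaks the median width was 625 bp (306 to 1345 bp), beside 551 bp over the whole list, whose quartiles were 410 and 835 bp. By interval the median was 600 bp for Rag1-Rag2, 737 bp for Ptcra and 486 bp for Dntt. This is also the order of the share of start peaks, the wider class in the whole list. At starts the median was 825 bp for the 11 members and 855 bp for all start peaks, and away from starts it was 502 bp for the 29 members and 465 bp for all such peaks. Of the 40 peaks, 11 lay within 1 kb of any annotated start, beside 35.4% of the whole list. The median GC content was 51.5%, beside 52.6% over all peaks.

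The start peaks of Rag1, Rag2 and Ptcra were poor in CpG, unlike the other start peaks of their intervals. A peak was called CpG-rich when it held at least 0.6 of the CpG dinucleotides that its C and G content predicts (the CpG ratio below) and when 50% or more of its bases were G or C. Of the 11 member peaks at starts 8 were CpG-rich, beside 68.3% of all start peaks. The other 3 were those of Rag1, Rag2 and Ptcra, with ratios of 0.24, 0.21 and 0.09. The start peak of Traf6, in contrast, had a ratio of 0.74, and those of the neighbours of Ptcra had ratios from 0.62 (Rpl7l1) to 0.85 (Pex6). Away from starts 1 of 29 member peaks was CpG-rich, beside 2.94% of all such peaks. That peak is the widest one, far upstream of Ptcra, with a ratio of 0.88 and a GC content of 68.3%. In the 250 bp before the annotated start, where Dntt can be compared although it has no peak, the ratio was 0.07 for Rag1, 0.28 for Rag2, 0.04 for Ptcra and 0.19 for Dntt, beside a median of 0.50 over protein-coding genes. All 4 genes were thus below that median, while their GC content was 50.8%, 41.6%, 63.2% and 41.6% in the same order, beside a median of 54%.

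**Figure D4:**
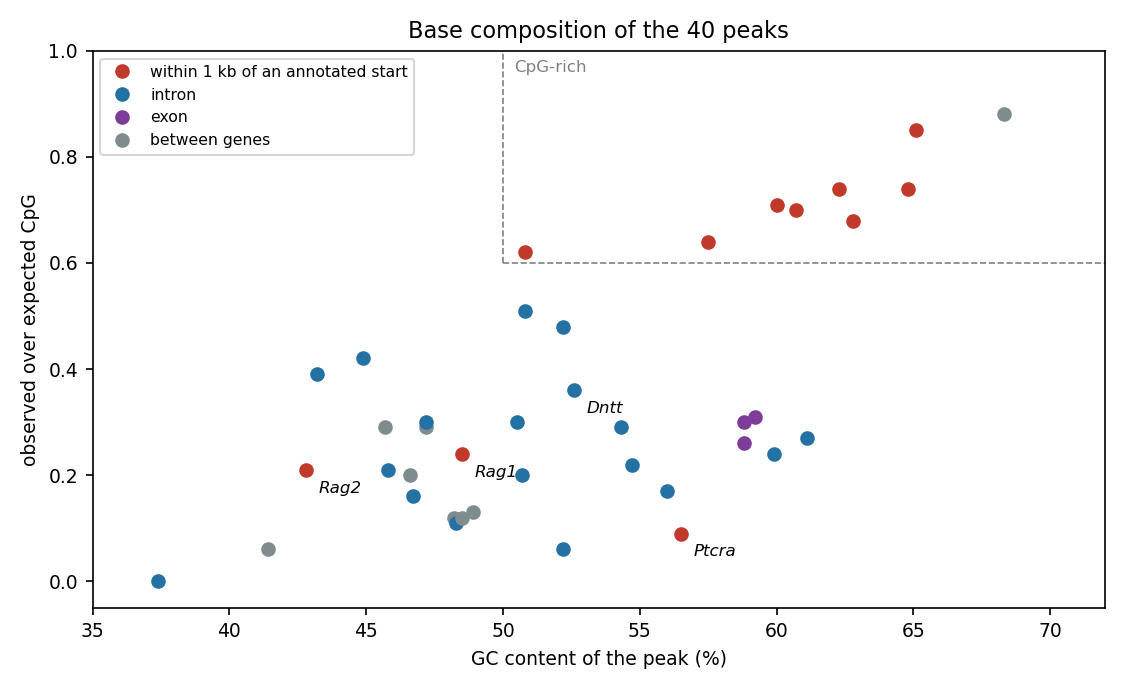
Observed over expected CpG (y axis) against GC content in percent (x axis) for each of the 40 peaks, coloured by annotation; dashed lines bound the CpG-rich class and names mark the peak nearest to each gene's start. The start peaks of Rag1, Rag2 and Ptcra lie at 0.24, 0.21 and 0.09, below the 8 other start peaks.

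The word TGGGAA, searched on both strands, occurred in 19 of the 40 peaks, beside 42.5% of the whole list. It was found in 7 of 12 peaks of the Rag1-Rag2 interval (11 sites), in 9 of 18 of the Ptcra interval (17 sites) and in 3 of 10 of the Dntt interval (4 sites). In the central 200 bp, a length equal for all peaks, 7 of 40 held it, beside 15.3%. Peaks with 2 or more numbered 10 of 40, beside 12.3% of the list, 6 of them in the Ptcra interval, 3 in the Rag1-Rag2 interval and 1 in the Dntt interval. These counts are not adjusted for the width of the peaks.

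Among the peaks with several TGGGAA, the Ptcra start peak and the Rpl7l1 start peak had 3 each. The Ptcra start peak further held 4 CAGCTG and 2 CAGGTG, against 0 of either word in that of Rpl7l1. Its TGGGAA lay 146, 198 and 483 bp upstream of the GENCODE start, and 2 CAGCTG lay between the first and the second of them, at 163 and 174 bp. In the printed part this is the run near the 3′ end in which 2 CAGCTG stand between 2 TGGGAA. Peaks with at least as many TGGGAA and at least as many CAGCTG made up 0.0892% of the list (29 of 32527). In the 250 bp before the start, Ptcra held 2 TGGGAA and 3 CAGCTG, a combination found in 0% of the 22380 protein-coding genes, among which 21% held TGGGAA and 11.8% held CAGCTG at least once. Both thresholds were set by the sequence of Ptcra after it was read, so these shares are descriptions. Since RefSeq starts the gene 119 bp further upstream, a CAGCTG at 93 bp lies inside the RefSeq transcript.

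The peak 4.57 kb upstream of Ptcra held 2 TGGGAA, 4461 and 4709 bp before the start, 2 CAGGTG and 1 TGTGGT, the word of RUNX factors. Whether it is the known Ptcra enhancer was not tested. The other peaks with 2 TGGGAA around Ptcra were the start peaks of Klhdc3 and Mea1 and of Cnpy3 and the widest peak.

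In the Rag1-Rag2 interval the peak 61.1 kb upstream of Rag2 held 3 TGGGAA, and the start peaks of Rag2 and Traf6 held 2 each. The Rag2 start peak had in addition 3 AGATAA, the word of GATA factors, and no CAGCTG or CAGGTG. The Rag1 start peak had 1 TGGGAA, 1 CAGCTG, 1 CAGGTG and 2 TGTGGT, all of them in the part printed above. The start peaks of both recombinase genes thus held TGGGAA and TGTGGT, words found in 48.4% and 34.1% of all start peaks. Sharing them is therefore not read as a trait of these genes. The TGTGGT of the Rag2 start peak lay 304 bp downstream of the start. The E-box words were only in the start peak of Rag1, and AGATAA only in that of Rag2. The peak 73.2 kb upstream of Rag2 held the most E-box words of the interval, 2 CAGCTG and 3 CAGGTG, together with 2 AGATAA, 2 CTTTGA (the word of TCF1 and LEF1), 1 TGGGAA and 1 TGTGGT.

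Around Dntt, the 1139 bp peak 7.12 kb upstream held 2 TGGGAA, 4 TGAGAA (a degenerate RBPJ word), 2 CAGCTG, 1 CAGGTG and 2 AGATAA. The intron 1 peak held no TGGGAA, no E-box word and no RUNX word. In the 250 bp before the start of Dntt, of the 12 words searched only AGATAA and AGGGGGC (part of the CTCF site) were found, once each, and before that of Rag2 none was found. A head-to-head pair of RBPJ words, TGNGAA and TTCNCA with 15 to 17 bases between them, occurred in 0 of the 40 peaks, beside 0.326% of the list.

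For the other words the central 200 bp of the members were set beside those of the whole list. TGAGAA was in 5 of 40, beside 13.8%. CAGCTG was in 6 of 40, beside 21.3%, and CAGGTG in 9 of 40, beside 23.3%. The ETS words CGGAAG and AGGAAG were in 7 and 10 of 40, beside 11.6% and 32.6%. Words of factors with roles in thymocytes were in 5 (TGTGGT), 3 (AGATAA) and 3 (CTTTGA) of 40, beside 19.9%, 6.87% and 13.1%. The SP/KLF word GGGCGG was in 7 of 40, beside 23.4%, and the CTCF words AGGGGGC and AGGTGGC in 5 of 40 each, beside 9.28% and 8.96%. Each of these counts is 10 or fewer, and none is read as a difference from the list. Over whole peaks GGGCGG was in 8 of 11 member start peaks, beside 76.6% of all start peaks. Away from starts it was in 3 of 29 member peaks, beside 17.9%. The 8 were the same start peaks that were CpG-rich, so those of Rag1, Rag2 and Ptcra lacked the word.

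**Figure D5:**
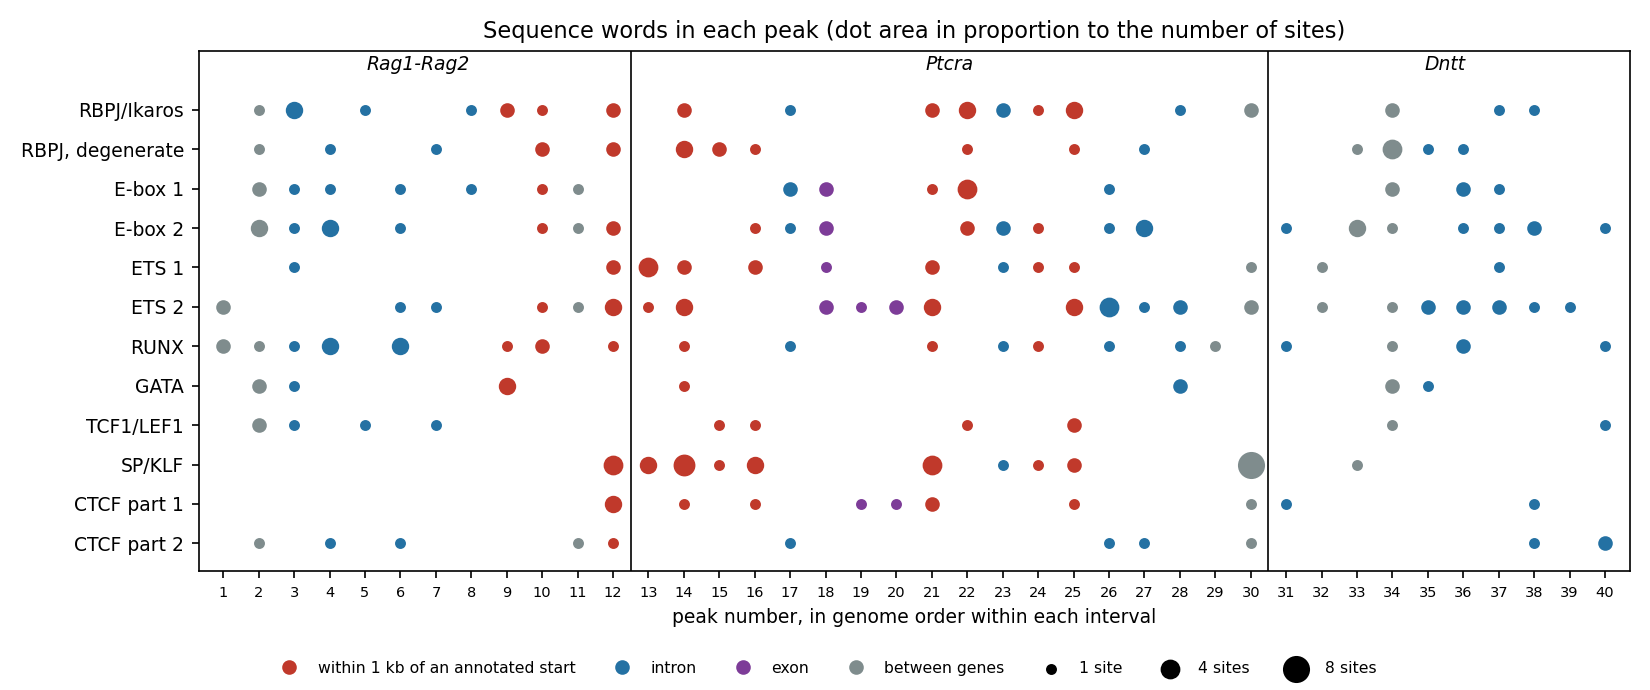
Sites of 12 sequence words (rows, named by the factors that bind them; dot area in proportion to the number of sites) in each of the 40 peaks (columns, in genome order), coloured by annotation. Peak 22 is the Ptcra start peak, with 3 RBPJ/Ikaros and 4 CAGCTG sites (E-box 1), while SP/KLF words are missing from the start peaks of Rag2 (peak 9), Rag1 (peak 10) and Ptcra.

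The proteins that act with these genes were looked up by lists that hold their known partners. The first list held 12 genes of end joining and cleavage cofactors, which act in cutting by RAG1 and RAG2 or on the cut ends. Of these, 9 had a peak within 1 kb of their start, beside 46.9% of protein-coding genes. The exceptions were Nhej1, Prkdc and Poll, whose nearest peaks were 19672, 43095 and 6041 bp away. The template-independent Dntt thus stood beside another X-family polymerase of the list without a start peak, Poll, and one with it, Polm. Among 8 genes that build or signal from the pre-TCR with Ptcra, 7 had a start peak, and the nearest peak of the remaining one, Cd3d, was 1119 bp from its start. Of 6 annotated genes of the pre-B-cell receptor and its signaling, only Vpreb1, a surrogate light chain gene, had one. The nearest peaks of Igll1, Vpreb2, Cd79a, Cd79b and Blnk were 1218, 6290, 6519, 11010 and 21482 bp away. Rag1, Rag2 and Dntt act in both lineages, Ptcra in the T lineage. In number of peaks the lists overlapped, beside the 18 around Ptcra. The pre-TCR list had 15 around each of Cd3d, Cd3e and Cd3g, which are neighbours, and 20 around Cd247. Its lowest were 10 around Lcp2 and 9 around Zap70. The pre-B-cell receptor list had 16 around Vpreb2, 15 around Cd79a, 12 around Cd79b and 11 around Blnk. It had 5 each around Vpreb1 and Igll1. Blnk is a neighbour of Dntt, so most of the peaks counted around it are also peaks of the Dntt interval.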

How the data were processed

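ATAC-Seq was performed by the study with a commercial kit in 6 libraries of Beko cells. Per the methods of the study and the submitters' processing notes, the authors trimmed reads with trimGalore, aligned them to mm9 with HISAT2 2.2.1, removed duplicates with Picard, called peaks with MACS2 without an input, merged replicates by MSPC, took out blacklisted regions and retained peaks present in 3 of 6 libraries. As deposited, the values give where each peak starts and ends, in bp. They carry no score, count or name per library, so that a peak of 1 treatment cannot be told apart from a shared one, and no group comparison was made.

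Starts were read as counted from 0 and are printed counted from 1. Genes and sequence came from GENCODE vM1 and the NCBIM37 (mm9) genome. RefSeq starts were found by matching RefSeq promoter sequences of GRCm38.p6 inside the peaks. Ptcra carries another biotype in vM1 and is not among the 22380 protein-coding genes. Words were searched as exact matches on both strands, and the words of different factors can overlap. Features were assigned at the centre of a peak, with starts within 1 kb first. Interval overlap and word counting were tested on simulated data. Analyses used Python 3.11.15, numpy 2.4.6 and matplotlib 3.10.9.

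The members, words and gene lists were chosen with earlier results of these data known. Named were the 4 genes, protein-coding genes with a start within 1 kb of a member peak, the widest peak and the peaks nearest to a start, and every peak with 2 or more TGGGAA or a head-to-head pair. The sequences shown were the peaks nearest to the 4 starts and the Dntt peak with most TGGGAA. Those of the peaks 4.57 and 73.2 kb upstream of Ptcra and Rag2 were added after their values were seen, and those of the Rpl7l1 start peak and of the peak 61.1 kb upstream of Rag2, which the same rule names, are not shown. All other peaks, and the words and shares named as picked out in the text, were described after their values were seen. Alternatives were other flanks, a minimum width, joining of close peaks, other distances to starts and other forms of the word. Syk was not analysed here. A further B-lineage marker is not reported here.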

Additional observations from a re-analysis of the deposited data

How the results depend on the processing

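Of the alternatives, 26 values stayed within the set range of the main value and 17 moved. With flanks of 10 kb in place of 100 kb, 2, 4 and 5 peaks were left in the Rag1-Rag2, Ptcra and Dntt intervals, 11 in all, and with 50 kb the Ptcra interval held 11. Only peaks of at least 500 bp gave 7 in the Rag1-Rag2 interval, 5 in the Dntt interval and 26 in all, with a median width of 800 bp. With starts within 5 kb, 20 of the 40 peaks lay at a start. Searching the central 200 bp left 7 peaks with TGGGAA. The share of protein-coding genes with fewer peaks was 83.4%, 97.6% and 74.6% for Rag1-Rag2, Ptcra and Dntt by peaks per 100 kb, and 89%, 95.1% and 89% with 50 kb flanks. No paired analysis was possible because peaks of all libraries stand in 1 merged list without values for single libraries. The rule for a kept peak, 3 of 6 libraries, and the lack of read counts limit every value to presence or absence in this list, and weaker accessible intervals may be missing from it.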
